A study of Mus musculus with 4 samples.

Results

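Of neutrophils, the granulocytes that reach inflamed skin first, 9 genes of granules and surface receptors were followed in bulk RNA of IMQ-treated dorsal skin. Macrophages and monocytes also express several of the receptors, so the values are not a measure of neutrophils alone. The genes were taken by symbol (*Mmp8*, *Mmp9*, *Ngp*, *Retnlg*, *Fpr1*, *Fpr2*, *Trem1*, *Clec4d* and *Clec4e*), and all 9 were found among the 24346 symbols of the RNA sequence files. In the skin, 4 of the 9 genes (*Mmp8*, *Retnlg*, *Trem1* and *Clec4d*) were higher in both libraries of the 7KC-IMQ group than in both of the Cont-IMQ group, whereas *Mmp9* and *Fpr1* were lower in both and *Fpr2*, *Clec4e* and *Ngp* overlapped. Of all genes tested, 23.9% were higher and 22.9% lower without overlap in the same way. Without Cont-IMQ replicate 2 the log2 differences of *Mmp9* and *Fpr1* were only -0.12 and -0.06. None of the 9 genes passed the adjusted threshold of the test across all genes.

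The 4 libraries came from wild type male C57BL/6 mice, 8 weeks old when the diet began, which received the NASH diet (rich in fat, cholesterol and sucrose, with bile salt) for 3 weeks and then 5% imiquimod (IMQ) cream for 1 day. In the Cont-IMQ group (replicates 1 and 2) the NASH diet held no 7-ketocholesterol (7KC), an oxidized cholesterol, and in the 7KC-IMQ group (replicates 1 and 2) it was supplemented with 7KC. Both groups thus shared the NASH diet and IMQ, and neither vehicle-treated skin nor skin of mice on a standard diet was part of the comparison. The labels do not say whether a library is from 1 mouse or from pooled mice, so the p-values describe the spread between these libraries only.

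Neutrophils are made in the bone marrow, where they fill successive sets of granules. The genes of the early granules (*Mpo*, *Elane*) and of the specific granules (*Ltf*, *Ngp*) are transcribed mainly in marrow precursors, while receptors and gelatinase granule genes are transcribed later in maturation. Neutrophils that have entered a tissue therefore carry many granule proteins whose mRNA has largely been lost. Receptors such as the formyl peptide receptors guide them towards bacterial and mitochondrial peptides, and TREM-1 and the C-type lectin receptors MCL (*Clec4d*) and Mincle (*Clec4e*) amplify their activation. Macrophages and monocytes express several of these receptors as well.

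The promoters of the members were read because genes of maturing neutrophils are classically driven by the transcription factors PU.1 and C/EBP. A promoter sequence was found for 8 of the 9 members, *Mmp9* being the exception, in RefSeq on GRCm38.p6. The 250 bases before the start are given 5′ to 3′ for the 4 genes that were higher in the 7KC-IMQ group (*Mmp8*, chr9:7558179-7558428, plus strand; *Retnlg*, chr16:48872358-48872607, plus strand; *Trem1*, chr17:48232489-48232738, plus strand; *Clec4d*, chr6:123261857-123262106, plus strand). For contrast they are followed by *Clec4e* (chr6:123289872-123290121, minus strand), the neighbour of *Clec4d* that did not differ in the same way, and by *Fpr1* (chr17:17883940-17884189, minus strand), which was lower. Capitals mark matches, on either strand, to PU.1 (GAGGAA), C/EBP (TTNNGNAA), STAT (TTCNNNGAA), AP-1 (TGANTCA) or the NF-kB motif.
Mmp8: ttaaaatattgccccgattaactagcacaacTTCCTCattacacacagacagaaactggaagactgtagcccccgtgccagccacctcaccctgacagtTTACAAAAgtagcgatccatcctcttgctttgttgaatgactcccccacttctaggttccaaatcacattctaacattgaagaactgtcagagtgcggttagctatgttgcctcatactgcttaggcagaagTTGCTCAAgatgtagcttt
Retnlg: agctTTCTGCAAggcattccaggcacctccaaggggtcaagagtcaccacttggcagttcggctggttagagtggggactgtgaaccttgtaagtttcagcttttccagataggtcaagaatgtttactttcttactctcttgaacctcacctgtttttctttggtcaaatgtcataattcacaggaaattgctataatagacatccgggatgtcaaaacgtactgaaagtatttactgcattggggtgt
Trem1: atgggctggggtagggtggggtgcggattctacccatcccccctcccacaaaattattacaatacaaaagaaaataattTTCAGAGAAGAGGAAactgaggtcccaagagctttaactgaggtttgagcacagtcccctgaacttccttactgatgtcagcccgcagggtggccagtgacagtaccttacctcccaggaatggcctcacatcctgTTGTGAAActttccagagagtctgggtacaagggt
Clec4d: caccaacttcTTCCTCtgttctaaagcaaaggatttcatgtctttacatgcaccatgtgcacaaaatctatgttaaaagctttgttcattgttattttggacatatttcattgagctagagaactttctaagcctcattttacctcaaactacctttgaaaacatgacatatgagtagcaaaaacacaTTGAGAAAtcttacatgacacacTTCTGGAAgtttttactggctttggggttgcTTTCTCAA
Clec4e: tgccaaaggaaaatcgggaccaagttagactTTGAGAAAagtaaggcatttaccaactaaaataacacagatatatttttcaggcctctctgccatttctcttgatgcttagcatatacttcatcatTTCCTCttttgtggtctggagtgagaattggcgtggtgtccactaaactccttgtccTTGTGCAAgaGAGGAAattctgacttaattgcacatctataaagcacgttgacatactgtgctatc
Fpr1: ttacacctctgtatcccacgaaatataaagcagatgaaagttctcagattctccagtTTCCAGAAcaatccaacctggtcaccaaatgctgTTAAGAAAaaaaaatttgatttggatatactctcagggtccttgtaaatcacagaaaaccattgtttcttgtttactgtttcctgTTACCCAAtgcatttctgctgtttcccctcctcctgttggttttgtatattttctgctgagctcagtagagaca
A C/EBP match stood in each of the 8 promoters, including both printed neighbours and *Fpr1*, and in 36.8% of the 32851 promoter windows of the same length. PU.1 matches stood in 5 of the 8 promoters, against 23.3% of all windows, and STAT matches in 2 of the 8, against 7.02%. In *Trem1* the STAT match ends at the base before the PU.1 match begins. AP-1 matches (6.75% of all windows) and NF-kB matches (7.25%) stood in none of the 8. The motifs did not separate the genes that were higher from *Clec4e* and *Fpr1*, and a match of letters is a description of the sequence, not evidence of binding.

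Before the members, the make-up of the libraries was examined. Values are FPKM (fragments scaled to the length of the transcript and to the mapped fragments of the library), and replicate 1 of a group is always given before replicate 2. The depth estimated from the steps of the low values lay between 15000000 and 16290000 reads. Keratinocyte keratins were abundant in every library (*Krt5* from 2544 to 3062 FPKM), which are defining genes of the epidermis. Of the 5 neutrophil markers, *Ly6g* was not analysed here, and the other 4 (*Csf3r*, *Cxcr2*, *S100a8* and *S100a9*) were detected in every library. The Cont-IMQ libraries stood apart from each other. The 5 hair follicle markers summed to 73.9 and 1035 FPKM in Cont-IMQ replicates 1 and 2, below and above the 300.3 and 261 FPKM of the 7KC-IMQ libraries. The 4 keratinocyte markers were highest in Cont-IMQ replicate 1 (21781 FPKM) and lowest in replicate 2 (14463 FPKM). In Cont-IMQ replicate 2 the 11 macrophage and monocyte markers summed to 1004 FPKM, against 812 FPKM in Cont-IMQ replicate 1 and 787 and 860 FPKM in the 7KC-IMQ libraries. The differences of the members are therefore given without each of these libraries as well.

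On the FPKM scale, the 9 members were ordered by level, with *Fpr1* (13.8 to 22.5 FPKM over the 4 libraries) above *Fpr2* (9.50 to 12.6 FPKM). The ranges of *Clec4d*, *Mmp9* and *Retnlg* overlapped, between 0.821 and 3.97 FPKM, and that of *Mmp8* (0.346 to 1.49 FPKM) overlapped with *Retnlg*. *Clec4e* and *Trem1* overlapped below 0.6 FPKM, and *Ngp* never exceeded 0.138 FPKM. Only the step from *Fpr2* down to *Clec4d* and that between *Fpr1* and *Fpr2* left no overlap between neighbours in this order. The receptors for formyl peptides were thus the most abundant members in this skin and the specific granule gene *Ngp* the least.

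**Figure D1:**
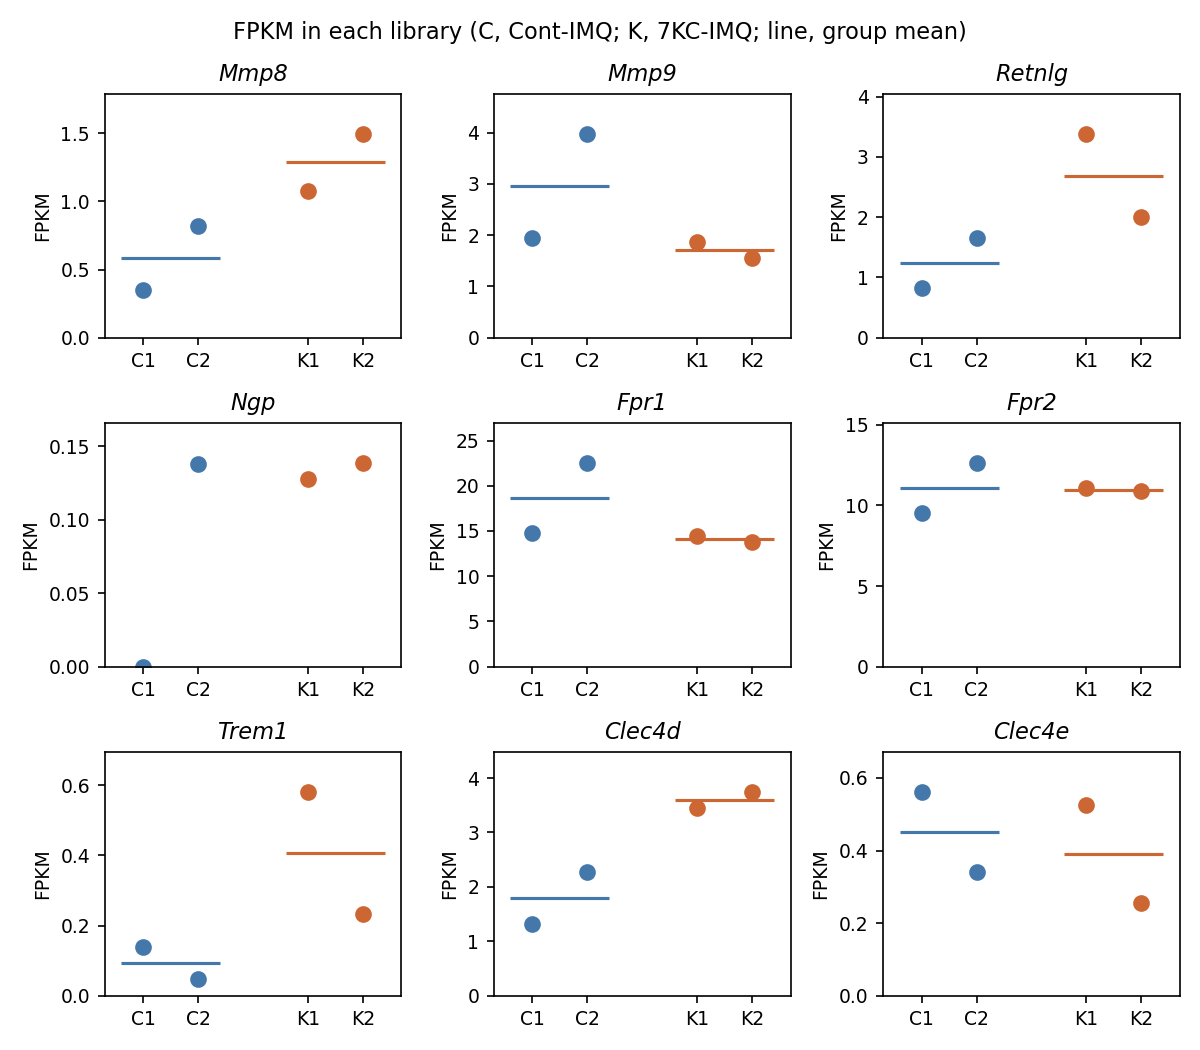
FPKM (linear axis from 0, own scale in each panel) of the 9 members in Cont-IMQ replicates 1 and 2 (C1, C2) and 7KC-IMQ replicates 1 and 2 (K1, K2), with the group mean as a line, except in *Ngp*, which is at the detection limit. *Mmp8*, *Retnlg*, *Trem1* and *Clec4d* lie higher in K1 and K2 than in C1 and C2, while *Mmp9* and *Fpr1* are highest in C2.

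Over all genes, the groups were compared by limma on log2(FPKM + 1) in the 15896 genes with a mean of at least 0.1 FPKM, a filter that all 9 members passed (*Ngp* narrowly). At an adjusted p-value of 0.05, 0 of the 9 members and 1 gene in all (0.00629% of the genes tested) passed. With limma p-values before adjustment, 2 members under 0.05 were higher (*Mmp8* and *Clec4d*) and none was lower, against 7.5% and 5.47% of all genes. Among all genes, 23.9% were higher and 22.9% lower without overlap between the groups, or 15% and 32.1% once the libraries were rescaled to the same sum, which left the counts of the members as they were. Against these shares stand 4 of 9 members that were higher and 2 of 9 that were lower, a difference in counts that was not tested. *Trem1* and *Ngp* had Cont-IMQ means under the filter (0.0922 and 0.0690 FPKM) and passed it only through the 7KC-IMQ group. With a minimum mean of 1 FPKM, 2 of 5 members were higher and 2 lower without overlap, against 25.9% and 23.2% of the genes. The median difference of the 9 members was 0.09 on the log2(FPKM + 1) scale, against -0.01 over all genes tested. This is the value of *Ngp*, a gene under the detection floor, and it was 0.0032 with a minimum mean of 1 FPKM and 0.59 with a pseudocount of 0.1. With 2 libraries in each group, the smallest p-value of a two-sided exact permutation test is 0.333, which the 6 genes without overlap all had. In bulk skin, fewer cells of a type and less RNA per cell cannot be told apart.

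Of the granule genes, *Mmp8* encodes neutrophil collagenase, which cleaves fibrillar collagens. The gene lies on chromosome 9 of GRCm38 (7558456 to 7568485, plus strand) and its coding transcript has 10 exons. It had 0.346 and 0.816 FPKM with Cont-IMQ, and 1.08 and 1.49 FPKM with 7KC-IMQ. Both 7KC-IMQ libraries were above both Cont-IMQ libraries. The means were 0.581 ± 0.332 and 1.29 ± 0.293 FPKM (SD, n = 2), a ratio of 2.21. The log2 difference was 0.54 (standard error 0.19, adjusted p = 0.374 in limma). These values rest on an estimated 12 and 27 reads in the Cont-IMQ group and 39 and 50 reads in the 7KC-IMQ group. Counting error alone gives a 95% interval of 1.5 to 3.31 (exact, Clopper-Pearson, on the split of the reads) for the ratio of the groups, and this interval, like those that follow, does not include differences between mice.

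*Retnlg* encodes resistin-like gamma, a small secreted protein of the resistin family made by maturing and circulating neutrophils. It lies on chromosome 16 (48872621 to 48874496, plus strand, 4 exons). Its values were 0.821 and 1.66 FPKM with Cont-IMQ, and 3.38 and 2.00 FPKM with 7KC-IMQ. The groups did not overlap, but Cont-IMQ replicate 2 and 7KC-IMQ replicate 2 came close. The means of 1.24 ± 0.592 and 2.69 ± 0.974 FPKM (SD, n = 2) differed by 0.72 on the log2(FPKM + 1) scale (standard error 0.27, adjusted p = 0.384 in limma). The estimated reads were few, 5 and 10 against 22 and 12, with a counting interval of 1.17 to 4.34 for the ratio. The other resistin genes did not share the pattern. *Retn*, which adipocytes express, had 78.9 and 118 FPKM against 116 and 111 FPKM, *Retnla* had 83.6 and 32.0 FPKM against 83.6 and 37.4 FPKM, and *Retnlb* was listed at 0 throughout.

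*Mmp9* encodes gelatinase B, which is stored in the gelatinase granules of neutrophils and is also made by macrophages, osteoclasts and wounded keratinocytes. It lies on chromosome 2 (164940780 to 164955850, plus strand, 13 exons). It had 1.94 and 3.97 FPKM with Cont-IMQ, and 1.86 and 1.55 FPKM with 7KC-IMQ. A group of 3 libraries lay close together, and Cont-IMQ replicate 2 stood above them. The means were 2.96 ± 1.43 and 1.70 ± 0.217 FPKM (SD, n = 2), with a log2 difference of -0.50 (standard error 0.27, adjusted p = 0.507 in limma). Without Cont-IMQ replicate 2 the difference was -0.12 (standard error 0.14, adjusted p = 0.696 in limma), so the size of the *Mmp9* difference rested on this library. The estimated reads, 88 and 178 against 90 and 69, gave a counting interval of 0.473 to 0.708 for the ratio, with the high library included.

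*Mmp8* was thus higher and *Mmp9* lower without overlap, but neither passed the adjusted threshold in limma. Most of the size of the *Mmp9* difference rested on Cont-IMQ replicate 2. Within a library, the FPKM of *Mmp9* was 5.61 and 4.86 times that of *Mmp8* in Cont-IMQ replicates 1 and 2, and 1.72 and 1.04 times in 7KC-IMQ replicates 1 and 2. *Timp1*, which encodes a secreted inhibitor of MMP-9, had 19.0 and 14.2 FPKM with Cont-IMQ against 40.4 and 40.8 FPKM with 7KC-IMQ (log2 difference 1.25, standard error 0.15, adjusted p = 0.331 in limma). The FPKM ratio of *Mmp9* to *Timp1* was 0.102 and 0.280 in the Cont-IMQ libraries and 0.0460 and 0.0380 in the 7KC-IMQ libraries. These ratios were chosen after the values were seen and were not tested. They did not overlap between the groups, which was fixed in advance because *Mmp9* was lower and *Mmp8* and *Timp1* were higher without overlap. *Reck*, a membrane-anchored MMP inhibitor, was lower without overlap, with 5.93 and 7.32 against 5.27 and 4.12 FPKM.

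*Ngp* encodes neutrophilic granule protein, a cathelicidin-related protein of the specific granules (chromosome 9, 110419747 to 110423012, plus strand, 4 exons). It was listed at 0 in Cont-IMQ replicate 1 and had 0.138 FPKM in replicate 2, and 0.128 and 0.138 FPKM with 7KC-IMQ. With the length of the annotated transcript, each of the latter values corresponds to about 2 reads, under the 3 reads taken as the floor, so no fold is given. *Ngp* mRNA was not detectable above the floor in any library at this depth. Among other granule genes of marrow precursors, *Ltf* (lactoferrin) was listed at 0 in 3 of the 4 libraries and had 0.0258 FPKM in Cont-IMQ replicate 2, and *Mpo* (myeloperoxidase) reached at most 0.0562 FPKM. Not all of them were this low. *Elane* (neutrophil elastase) had 0.183 and 0.740 FPKM with Cont-IMQ and was listed at 0 and had 0.279 FPKM with 7KC-IMQ, and *Prtn3* (proteinase 3) had 1.62 and 3.46 against 2.40 and 2.00 FPKM, both with overlapping groups.

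Of the receptors, *Fpr1* encodes the high-affinity receptor for formylated peptides and lies on chromosome 17 (17876471 to 17883940, minus strand, 2 exons). It had 14.8 and 22.5 FPKM with Cont-IMQ, and 14.4 and 13.8 FPKM with 7KC-IMQ. As in *Mmp9*, 3 libraries lay close together and Cont-IMQ replicate 2 stood above them. The means of 18.6 ± 5.44 and 14.1 ± 0.427 FPKM (SD, n = 2) differed by -0.35 on the log2(FPKM + 1) scale (standard error 0.20, adjusted p = 0.531 in limma). Without Cont-IMQ replicate 2 the difference was -0.06 (standard error 0.09, adjusted p = 0.772 in limma). *Fpr1* had the most reads of the members, an estimated 253 and 382 against 264 and 233.

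*Fpr2*, which encodes a receptor for formylated peptides, serum amyloid A and annexin A1, lies on chromosome 17 (17887824 to 17893952, plus strand, 2 exons), 3883 bases from *Fpr1*. It had 9.50 and 12.6 FPKM with Cont-IMQ, and 11.1 and 10.9 FPKM with 7KC-IMQ. Both 7KC-IMQ libraries lay between the Cont-IMQ libraries. The log2 difference was 0.0032 (standard error 0.15, adjusted p = 0.996 in limma). Its sign changed without Cont-IMQ replicate 1, without 7KC-IMQ replicate 1, with rescaling to the same sum and with quantile normalization. It was kept without either replicate 2 and with median ratio scaling. The counting interval of the ratio was 0.848 to 1.17. Of the 75-base windows of *Fpr2*, 20.9% also occur in another annotated gene, mostly the predicted gene *Gm5966* and in part *Fpr3*, so that some of its reads may be assigned to either. *Fpr3*, *Fpr-rs3*, *Fpr-rs4* and *Fpr-rs6* were listed at 0 in all 4 libraries. *Fpr1* to *Fpr2* ratios of FPKM were 1.56 and 1.78 in the Cont-IMQ group and 1.31 and 1.27 in the 7KC-IMQ group.

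Among the ligands of FPR2, *Anxa1* (annexin A1) was lower without overlap, with 655 and 680 FPKM with Cont-IMQ against 553 and 620 FPKM with 7KC-IMQ. *Saa1*, which encodes serum amyloid A, was higher without overlap, with 18.3 and 12.1 against 21.1 and 75 FPKM, and 7KC-IMQ replicate 2 stood far above the other libraries. *Saa3* overlapped, with 294 and 661 FPKM against 435 and 547 FPKM. The ligands of the receptor thus showed no common direction.

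*Trem1* encodes TREM-1, which signals through the adaptor DAP12 (*Tyrobp*). It lies on chromosome 17 (48232768 to 48246924, plus strand, 4 exons). It had 0.138 and 0.0464 FPKM with Cont-IMQ, and 0.580 and 0.233 FPKM with 7KC-IMQ. The groups did not overlap, although the level was low in each library. The means were 0.0922 ± 0.0647 and 0.407 ± 0.245 FPKM (SD, n = 2), a ratio of 4.41. Since the pseudocount of 1 exceeds these values, the log2(FPKM + 1) difference was only 0.36 (standard error 0.16, adjusted p = 0.436 in limma), and with a pseudocount of 0.1 it was 1.35. The values correspond to about 6 and 2 reads against 26 and 10 reads, that of Cont-IMQ replicate 2 being under the floor. The counting interval of the ratio, 1.99 to 10.9, is accordingly wide. A processed pseudogene is annotated on the opposite strand within the gene, and whether the counting used the strand is not given in the sources used here.

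*Pglyrp1*, a granule protein that can act as a ligand of TREM-1, also differed, with 4.02 and 3.36 FPKM with Cont-IMQ against 11 and 11 FPKM with 7KC-IMQ. Its log2 difference was 1.36 (standard error 0.11, adjusted p = 0.265 in limma), the largest distance between the groups relative to its error among the neutrophil genes listed. *Tyrobp* overlapped, with 110 and 131 against 113 and 114 FPKM. Of the TREM relatives, *Treml4* was lower without overlap (0.215 and 0.260 against 0.0401 and 0.0435 FPKM), in values near the detection limit.

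*Clec4d* and *Clec4e* lie 6523 bases apart on chromosome 6 (123262111 to 123275265, plus strand, and 123281789 to 123289870, minus strand, with 6 exons in each coding transcript). They encode MCL and Mincle, receptors for mycobacterial glycolipid and, in Mincle, for a protein of dying cells, which form a complex and signal through the Fc receptor gamma chain (*Fcer1g*), *Syk* and *Card9*. *Clec4d* had 1.33 and 2.27 FPKM with Cont-IMQ, and 3.45 and 3.74 FPKM with 7KC-IMQ. The groups did not overlap, and the 7KC-IMQ libraries differed little from each other. The means were 1.80 ± 0.668 and 3.59 ± 0.207 FPKM (SD, n = 2), a ratio of 2.00. The log2 difference was 0.73 (standard error 0.19, adjusted p = 0.356 in limma), the smallest adjusted p-value of the 9 members. The estimated reads were 23 and 39 against 63 and 63, with a counting interval of 1.44 to 2.71 for the ratio.

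*Clec4e*, in contrast, had 0.561 and 0.340 FPKM with Cont-IMQ, and 0.524 and 0.256 FPKM with 7KC-IMQ. The groups overlapped, and each held a higher and a lower library. The log2 difference was -0.06 (standard error 0.15, adjusted p = 0.889 in limma), from about 20 and 12 against 20 and 9 reads, and the counting interval of the ratio was 0.513 to 1.5. The FPKM of *Clec4d* was 2.36 and 6.68 times that of *Clec4e* in the Cont-IMQ libraries, and 6.58 and 14.6 times in the 7KC-IMQ libraries. These ranges overlap, so the ratio of the neighbouring genes was not separated between the groups.

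**Figure D2:**
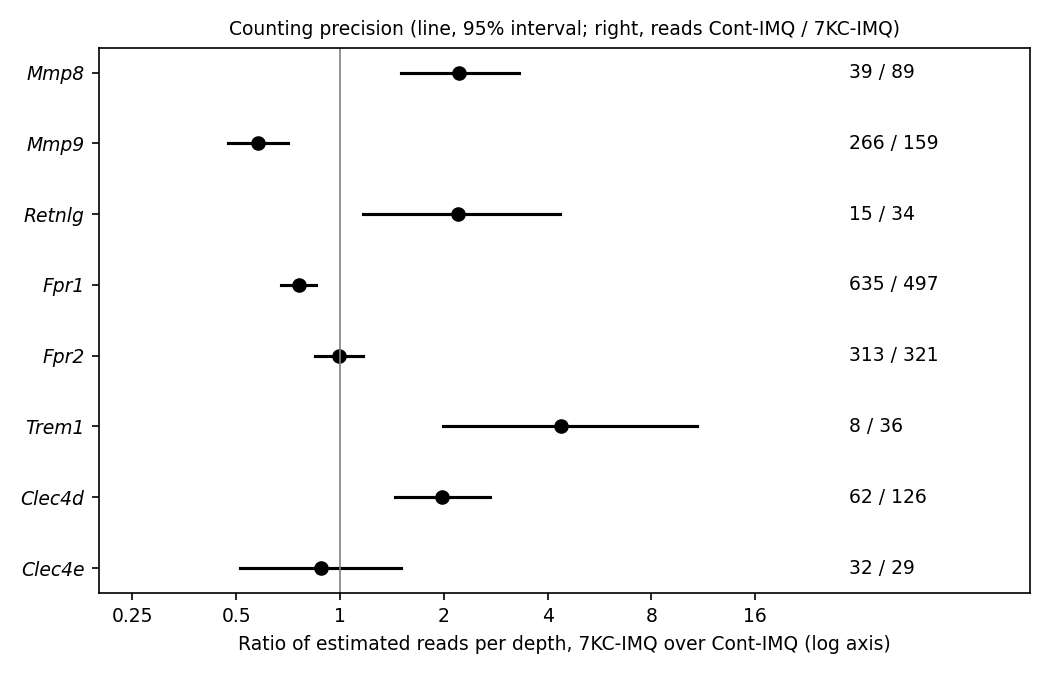
Ratio of estimated reads per depth in the 7KC-IMQ group over the Cont-IMQ group (log axis) for the 8 members above the floor, with the 95% interval for counting error only as a line and the summed estimated reads of both groups on the right. The intervals of *Mmp8*, *Retnlg*, *Trem1* and *Clec4d* lie above 1, those of *Mmp9* and *Fpr1* below 1, and *Trem1* rests on 8 reads in the Cont-IMQ group.

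When single libraries were omitted, the log2(FPKM + 1) difference ranged from 0.33 to 0.76 in *Mmp8*, from 0.45 to 0.99 in *Retnlg*, from 0.18 to 0.53 in *Trem1* and from 0.49 to 0.98 in *Clec4d*, and from -0.88 to -0.12 in *Mmp9* and -0.63 to -0.06 in *Fpr1*. Since the groups did not overlap in these 6 genes, the sign could not change, and the ranges describe the size only. Without Cont-IMQ replicate 2, the library rich in hair follicle and macrophage markers, *Mmp8* differed by 0.76, *Retnlg* by 0.99 and *Clec4d* by 0.98, more than with it, while *Trem1* differed by 0.29. Most of the size of the *Mmp9* and *Fpr1* differences rested on this library. The part of its hair follicle and macrophage content in these values was not tested. Other libraries moved single values as well. Without 7KC-IMQ replicate 1 the difference was 0.18 in *Trem1* and 0.45 in *Retnlg*. Without Cont-IMQ replicate 1 it was 0.33 in *Mmp8*, 0.45 in *Retnlg* and 0.49 in *Clec4d*, and -0.88 in *Mmp9* and -0.63 in *Fpr1*. Where a library is left out, its group has 1 library, which is assumed to vary like those of the other group.

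**Figure D3:**
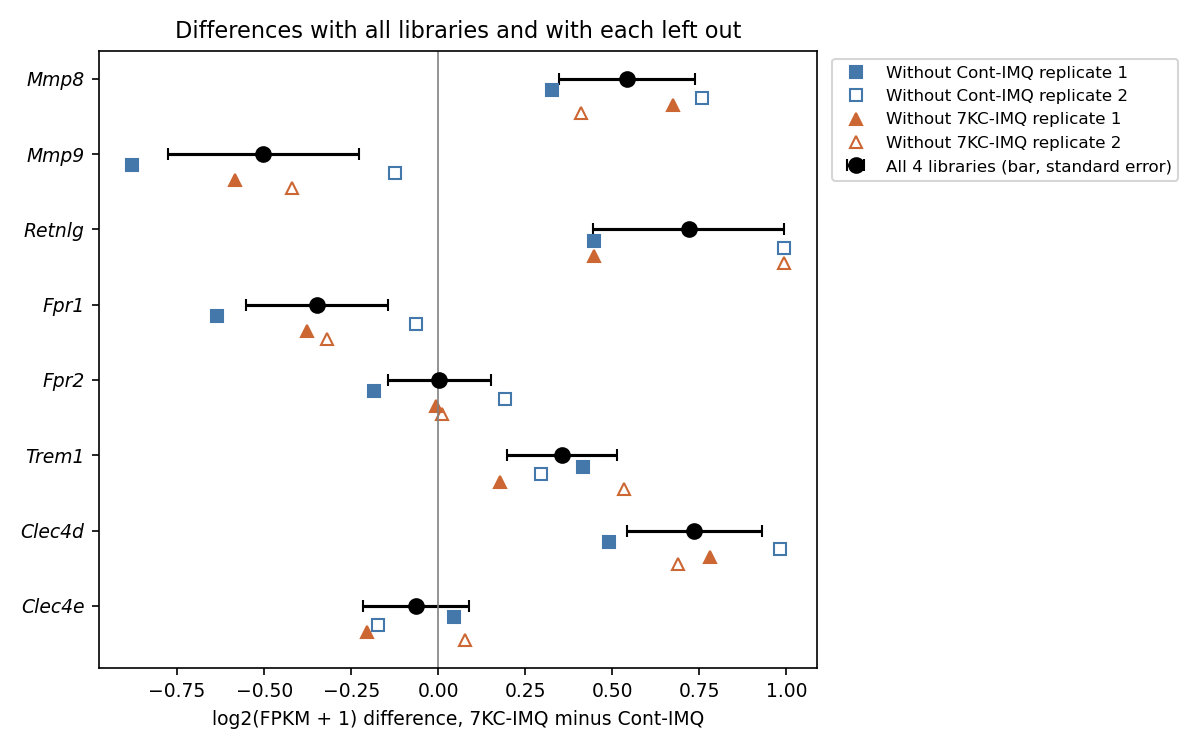
Difference in log2(FPKM + 1), 7KC-IMQ minus Cont-IMQ, of the 8 members above the floor with all 4 libraries (black point, bar for the standard error) and with each library left out (squares, a Cont-IMQ library; triangles, a 7KC-IMQ library). *Mmp9* and *Fpr1* come close to 0 without Cont-IMQ replicate 2 (open squares, -0.12 and -0.06), and *Fpr2* and *Clec4e* have points on both sides of 0.

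To place the members among other neutrophil genes, 39 genes of granules, surface and identity were listed, of which 38 are in the files and 35 were tested. Of these 35, 13 were higher and 3 lower without overlap, against 23.9% and 22.9% of all genes. An unadjusted p-value under 0.05 was found in 14 of them in either direction, against 7.5% higher and 5.47% lower over all genes, and none passed the adjusted threshold in limma (lowest adjusted p = 0.265). Their median difference was 0.02, against -0.01 over all genes, with single genes reaching 2.11. The median was 0.15 without Cont-IMQ replicate 1, 0.16 without Cont-IMQ replicate 2, 0.11 without 7KC-IMQ replicate 1, 0.06 without 7KC-IMQ replicate 2 and -0.04 with rescaling to the same sum. Among the 12 other granule and secreted proteins tested, 5 were higher without overlap (*Lcn2*, *Pglyrp1*, *Slpi*, *Hp* and *Camp*) and 2 were lower (*Chil3* and *Lyz2*). *Lcn2*, whose product binds iron siderophores, had the largest difference, with 125 and 110 FPKM against 273 and 372 FPKM (log2 difference 1.43, standard error 0.17, adjusted p = 0.331 in limma). Inflamed keratinocytes also express *Lcn2*, *Slpi* and the S100 genes. *Camp*, the cathelicidin, was listed at 0 in Cont-IMQ replicate 2 and had 0.336 FPKM in replicate 1, against 0.628 and 0.682 FPKM. *Chil3*, a chitinase-like protein also made by macrophages, had the largest difference downwards, with 1.17 and 1.77 against 0.684 and 0.891 FPKM.

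Among the 23 other surface and identity genes tested, 8 were higher and 1 lower without overlap, against 23.9% and 22.9% of all genes. *S100a8* had the largest difference (log2 difference 2.11, standard error 0.33, adjusted p = 0.352 in limma). The chemokine receptor genes *Cxcr2* (13.4 and 15 against 20.2 and 23.0 FPKM) and *Cxcr1* (0.710 and 1.00 against 1.66 and 2.02 FPKM) were higher, as was *Csf3r*, the receptor of the growth factor G-CSF, by a smaller amount (3.80 and 3.64 against 3.93 and 4.5 FPKM). In each of the 3 receptors both 7KC-IMQ libraries were above both Cont-IMQ libraries, while the order of the Cont-IMQ replicates differed in *Csf3r*. *Stfa2l1*, a stefin of neutrophils, was listed at 0 in both Cont-IMQ libraries and had 1.51 and 1.97 FPKM in the 7KC-IMQ libraries. This gene passed the filter only through the 7KC-IMQ group, and an exact 0 can be a failed estimate. It is counted among the 8 genes here, and above among the 13 higher and the 14 with an unadjusted limma p-value under 0.05. The gene that was lower was *Il1r2*, the decoy receptor of IL-1, with 102 and 127 against 100.1 and 76.6 FPKM. The integrin *Itgam*, the Fc receptor gene *Fcgr4* and the complement receptor *C5ar1*, shared with macrophages, overlapped.

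**Figure D4:**
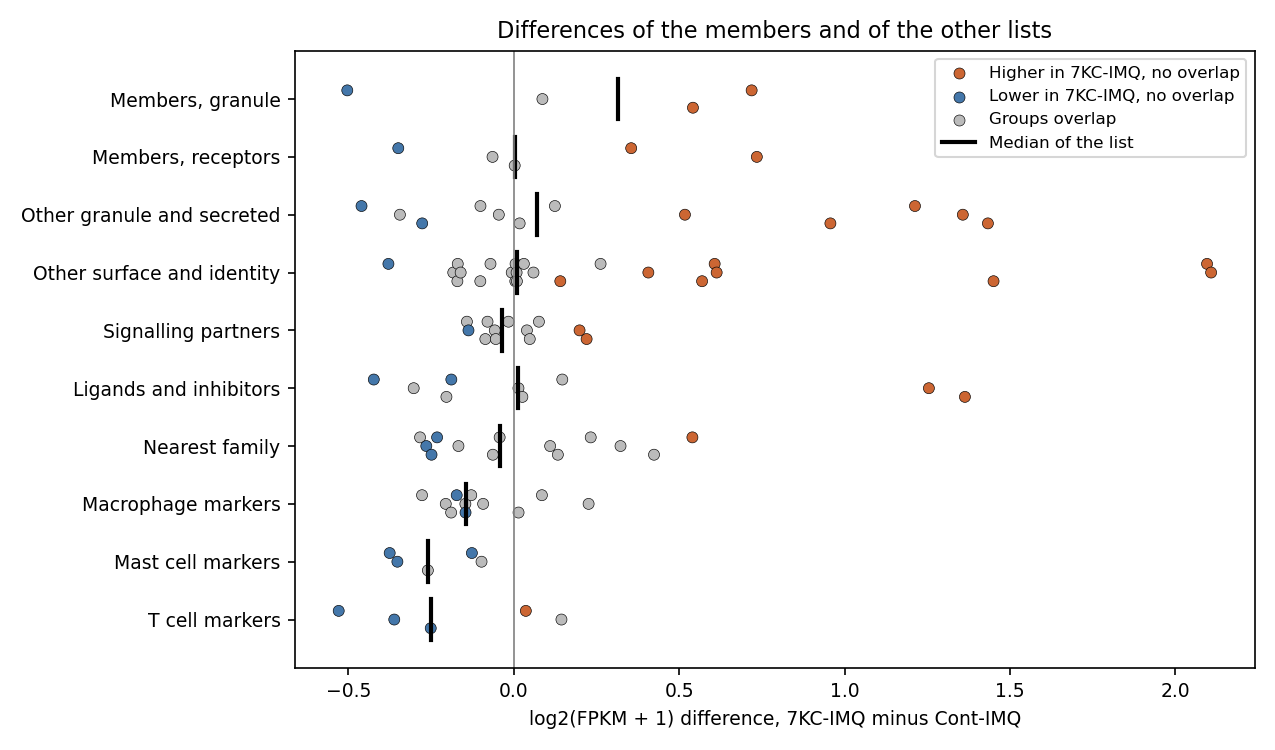
Difference in log2(FPKM + 1), 7KC-IMQ minus Cont-IMQ, of each gene tested in the members and in 8 other lists (rows), colored by whether the groups overlap, with the median of each list as a vertical bar. The members lie on both sides of 0, and the macrophage, mast cell and T cell markers have medians of -0.15, -0.26 and -0.25 with all 4 libraries, the macrophage median being 0.01 without Cont-IMQ replicate 2.

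Of the 12 signaling genes tested, *Malt1* and *Plcg2* were higher without overlap (log2 differences 0.20 and 0.22), *Pik3cg* was lower (-0.14) and 9 overlapped. Over all genes tested, 23.9% were higher and 22.9% lower without overlap. The signaling genes had a median of -0.03, which was 0.05 without Cont-IMQ replicate 2 or without 7KC-IMQ replicate 1. Of the 20 near relatives of the members in the files, 13 were tested. *Mmp13*, a collagenase like *Mmp8*, was higher without overlap (1.73 and 1.62 against 2.75 and 3.04 FPKM), and *Clec4a1*, *Clec4a2* and *Treml4* were lower. *Clec4a1*, of the same lectin cluster as *Clec4d* and expressed by macrophages, had 31.1 and 38.7 against 27.3 and 30.1 FPKM.

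Markers of other cell types that could carry the same genes were compared as lists. The counts without overlap stand beside 23.9% higher and 22.9% lower among all genes tested, and the difference was not tested. Of the 11 macrophage and monocyte markers, 0 were higher and 2 lower without overlap (median -0.15), and their summed level was 812 and 1004 FPKM with Cont-IMQ against 787 and 860 FPKM with 7KC-IMQ. Of the 5 mast cell markers 3 were lower without overlap (median -0.26), and of the 5 T cell markers 3 were lower and 1 higher (median -0.25). Of the 4 endothelial markers 3 were lower (median -0.36). Of the 3 red blood cell markers tested 1 was lower, *Hbb-bs*, with 8.32 and 0.00438 against 0.00392 and 0.00430 FPKM. These values are near 0 except in Cont-IMQ replicate 1. The red blood cell markers summed to 27.0 and 6.79 against 6.74 and 25.6 FPKM. The eosinophil genes *Epx* and *Prg2* were listed at 0 in all 4 libraries. The 4 adipocyte markers were all higher in mean, 2 of them without overlap (median 0.35). Single libraries moved several of these medians. That of the macrophage markers was 0.01 without Cont-IMQ replicate 2 and -0.06 without 7KC-IMQ replicate 1, and that of the mast cell markers was -0.41 without Cont-IMQ replicate 1. The T cell median was -0.12 without Cont-IMQ replicate 1, -0.38 without Cont-IMQ replicate 2 and -0.14 without 7KC-IMQ replicate 2. The adipocyte median was 0.11 without Cont-IMQ replicate 1, 0.59 without Cont-IMQ replicate 2 and 0.23 without 7KC-IMQ replicate 1. The part of these cell types in the values of the members was not tested.

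The gene nearest to each member in pattern was sought by the distance between log2(FPKM + 1) values centred on their mean over the 4 libraries, among genes with a mean of at least 1 FPKM. Among the listed genes, *Cxcr1* was nearest both to *Mmp8* (distance 0.17) and to *Clec4d* (0.23). *Fpr1* was nearest to *Mmp9* (0.22), and *Cd163*, a macrophage marker, was nearest to *Fpr1* (0.12). *Cd163* had 13 and 19.9 FPKM with Cont-IMQ against 12.8 and 13.5 FPKM with 7KC-IMQ, again highest in Cont-IMQ replicate 2. For *Retnlg* the nearest was *Hp*, the haptoglobin gene (0.38), and for *Trem1* it was *Malt1* (0.20). Among all genes tested, *Gpr35* was nearest to *Mmp8* (0.05) and *Derl3* to *Mmp9* (0.08). *Mt2* was nearest to *Clec4d* (0.10), *Serpina3m* to *Retnlg* (0.12), *Loxl4* to *Trem1* (0.06) and *2410006H16Rik* to *Fpr1* (0.02). Each of these was nearer to its member than the listed gene was. With 4 libraries, a small distance is found for many genes.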

How the data were processed

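RNA of dorsal skin was measured in 4 libraries, 2 per group, grouped by the sample titles. The authors made stranded mRNA libraries, sequenced 75-base single-end reads, mapped them to mm10 and deposited FPKM values, 1 file per library. Submitters' processing notes name TopHat2 2.1.1, Bowtie2 2.2.8, SAMtools 0.1.18 and Cuffdiff 2.2.1, and the paper names other versions and Cufflinks. How multi-mapping reads were assigned is not given in the sources used here.

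Genes with a mean of at least 0.1 FPKM were compared on log2(FPKM + 1) by limma 3.58.1 (R 4.3.3) with a variance trend and Benjamini-Hochberg adjustment over all genes tested, at 0.05. This scale understates the change of low genes. The test was tried on simulated data in which the noise of a gene depended only on its mean level. Spread of variance between genes of the same level was not simulated. Reads were estimated as FPKM × (transcript length minus 200 bases) × depth, with the depth that brings most low values of single-transcript genes within 0.1 of whole reads (73.4% to 75.0% of them, against 20% by chance), and 3 reads were the floor. These estimates cover counting error only. An exact 0 can be a failed estimate, as 28 genes with at least 10 FPKM in a library, *Rpl26* among them, were listed at 0 in another. Coordinates, transcripts and shared 75-base windows are from GENCODE M21 (GRCm38, also called mm10), and promoters are from RefSeq (GRCm38.p6).

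Members, lists and alternatives were chosen with earlier results of these data known. Named genes were all members, per list the largest rise and fall without overlap at a mean of at least 1 FPKM, genes sharing sequence with a member and the nearest patterns. Other list genes are named as examples from the lists, and the motifs and ratios were chosen after values were seen. Alternatives were the pseudocount, the filter, 3 scalings, a fit lacking the variance trend, a replicate block and leaving out each library.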

Additional observations from a re-analysis of the deposited data

How the results depend on the processing

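With each alternative that kept all 4 libraries, 0 of the 9 members passed the adjusted threshold in limma. *Mmp8*, *Retnlg*, *Trem1*, *Clec4d*, *Mmp9* and *Fpr1* kept their direction with the other pseudocount, filters and scalings wherever they were tested. The groups did not overlap in these genes, so the pseudocount and the filters could not change the sign, and only the scalings could have. *Fpr2* turned to -0.072 with rescaling to the same sum, to -0.0017 with quantile normalization and to between -0.18 and 0.19 with a library left out. *Clec4e* ranged from -0.20 to 0.076 with a library left out, and *Ngp* was -0.0062 without Cont-IMQ replicate 1. The genes called over the whole table numbered 1, 2 with a pseudocount of 0.1 and 71 without a filter, where the cause was not tested, and 1 to 11 with a library left out (11 without Cont-IMQ replicate 1, 5 without Cont-IMQ replicate 2). With a mean of at least 1 FPKM only 5 members were tested, of which 2 were higher and 2 lower without overlap. Their median difference was 0.0032. The members' median was 0.59 with a pseudocount of 0.1 and 0.046 to 0.24 with a library left out (0.24 without Cont-IMQ replicate 2 or without 7KC-IMQ replicate 2). Of the neutrophil genes other than the members, 3 of 35 were lower without overlap, against 22.9% of all genes. With a library left out, where 3 libraries separate more easily, 4 to 13 were lower, against 33.5% to 39.1% of all genes. The numbers were 13 without Cont-IMQ replicate 1, 8 without Cont-IMQ replicate 2 and 10 without 7KC-IMQ replicate 2. Those higher without overlap numbered 13 with all libraries. With a library left out they numbered 13 to 19, against 33.2% to 38.9% of all genes. Rescaling to the same sum moved the genes separated without overlap from 23.9% higher and 22.9% lower to 15% and 32.1%, and left the members' counts at 4 and 2. The replicate numbers are shared by the groups, but nothing in the labels says that a number marks a pair, and the deviations of same-numbered libraries correlated at 0.07 over the genes tested. With the replicate block, 1 gene was called, as without it. Depth limits *Ngp*, *Trem1*, *Retnlg* and *Clec4e* most, which had 2, 8, 15 and 32 estimated reads over the Cont-IMQ group.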
